A study of Mus musculus with 120 samples.

Results

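The mir-99/100 and mir-125 microRNAs are 6 mouse genes: Mir99a, Mir99b, Mir100, Mir125a, Mir125b-1 and Mir125b-2. They were chosen by name, with no measured value in the choice, and were 6 of the 1123 microRNA rows in the deposited tables of small RNA reads. Their reads were available in 114 libraries of the 120 samples, and their mature arms were 6 of the 394 arms in tables of base substitutions that cover the other 6 samples. The study followed small RNAs from the testis through the epididymis to mature sperm in mice. All mice were fed a control diet and tissues were taken at 8 to 12 weeks of age. RNA under 40 nt was cut from a gel and cloned. The titles of the washed sperm name the FVB strain, with the mark FVBTA in the first set and FVBCDIET in the others. What sets these marks apart is not stated, and the labels give no other strain, genotype or transgene.

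The libraries fell into these groups. Cauda epididymis tissue and testis tissue each had 4 libraries for each of phosphatase-dead polynucleotide kinase, full polynucleotide kinase, the demethylase AlkB, the pyrophosphohydrolase RppH and no enzyme, and each 4 were a pair labelled acid and a pair labelled base. Sperm from the cauda (the distal, storage end of the epididymis) and from the caput (its proximal end) each had 3 libraries with kinase and 3 without. A maturation series held 3 libraries of cauda epididymosomes (vesicles shed by the epididymal epithelium), 1 of primary spermatocytes, 1 each of early and late round spermatids, 4 of testicular sperm, 1 of caput sperm and 7 of cauda sperm. The titles of the 4 testicular sperm libraries carry different marks (2X, NaCl, fusion untreated and somatic), so they may not have been prepared alike. In the fusion experiment 2 libraries came from testicular sperm fused with caput epididymosomes and 2 from mock-fused sperm. Cauda sperm of 5 sets were left unwashed or were washed with SDS and Triton X-100 at low, mid or high detergent. Whole sperm, heads and tails of testicular and cauda sperm made up a further 20 libraries, all testicular ones washed with detergent and the cauda ones treated with hypotonic solution or detergent. Testis tissue, caput epididymis tissue and cauda sperm each gave 1 library labelled 4-TU (4-thiouracil, a base analogue that is built into new RNA) and 1 control library.

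A microRNA guides an Argonaute protein to messenger RNAs through its seed, the bases just after its first one, and the bound messages are repressed. The mir-99/100 and mir-125 families are ancient and conserved, and in mammals their genes lie in clusters together with let-7 genes. Members of the mir-125 family are known as regulators of blood cell formation and cell death, and members of the mir-99/100 family for repression of growth signalling through mTOR.

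The mature 5p sequences are shown because the families differ at the seed, and because near-identity within a family limits which rows can be told apart. Capitals mark the seed, bases 2 to 8.
miR-99a-5p: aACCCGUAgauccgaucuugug
miR-99b-5p: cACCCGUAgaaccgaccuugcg
miR-100-5p: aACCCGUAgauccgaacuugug
miR-125a-5p: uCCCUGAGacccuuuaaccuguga
miR-125b-5p: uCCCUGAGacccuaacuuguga
Sequences and positions are from RefSeq on GRCm38.p6, the assembly of the mm10 build that the submitters' processing notes name. All 6 genes matched. The seed ACCCGUA was found in no mature miRNA name of that table other than these 3, whereas CCCUGAG is also the seed of Mir351, Mir6367 and Mir6394. Counting from 1 at the 5′ end, miR-100 and miR-99a differ by A16U alone, and miR-99a and miR-99b differ by A1C, U11A, U16C and U21C. Mir125b-1 and Mir125b-2 give the same mature miR-125b-5p, so how the reads were split between these rows is uncertain. The ratio of the Mir125b-1 row to the Mir125b-2 row had a median of 0.784 and ran between 0.326 and 3.14 over the 114 libraries.

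Each locus pairs 1 member of each family, and all lie on the plus strand. On chromosome 9, miR-100-5p is at chr9:41531437-41531458 and a miR-125b-5p copy (Mir125b-1) at chr9:41581940-41581961, both in introns of 3110039I08Rik. Mir100 also lies in an exon of the antisense gene Gm48742, and Mir125b-1 in an exon of Gm28119. On chromosome 16, miR-99a-5p is at chr16:77598940-77598961 and the other miR-125b-5p copy (Mir125b-2) at chr16:77646279-77646300, in introns of the non-coding gene Mir99ahg. On chromosome 17, miR-99b-5p is at chr17:17830194-17830215 in an intron of Spaca6, and miR-125a-5p at chr17:17830817-17830840 where the hairpin overlaps a Spaca6 exon. The chromosome 17 hairpins are 554 bases apart, those on chromosome 9 are 50421 bases apart and those on chromosome 16 are 47272 bases apart. A let-7 gene lies between them in each locus (Mirlet7a-2, Mirlet7c-1 and Mirlet7e on chromosomes 9, 16 and 17).

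Library totals ran between 228043 and 19566143 reads in the tissue tables, between 156347 and 2533459 in the sperm kinase table, and between 3292715 and 56011165 in all other tables. Levels are given as reads per 1000000 reads of the library (CPM) or per 1000000 microRNA reads (microRNA CPM), and log2 fold changes are on a scale set by trimmed means of M values (TMM) unless another scale is named. Because microRNAs made up very different shares of the libraries, comparisons were also fitted on microRNA rows alone, which gives a change relative to other microRNAs. A member was called when edgeR's quasi-likelihood test gave it an adjusted p under 0.05, the adjustment being that of Benjamini and Hochberg across every row of the table. The labels do not say whether replicate libraries came from separate animals, so p-values measure the spread between libraries. In bulk RNA, fewer cells of a type and less RNA per cell cannot be told apart. Tissue markers followed the labels: summed over 5 epithelial microRNAs, cauda epididymis tissue had 18009 to 25623 CPM against 37.0 to 148 CPM in testis tissue, and summed over 12 male germ cell microRNAs it had 1816 to 2249 CPM against 15972 to 18497 CPM in testis tissue. Several libraries stood apart from their group. In the acid RppH library 2 of epididymis tissue the 6 genes held 0.387% of microRNA reads, against 0.0543% to 0.0840% in its 3 companions. The base RppH library 1 of testis tissue had 484914 reads and 8034 CPM of epithelial microRNAs, against a median of 114 CPM over the 4 libraries. Mir100 had 0 reads in that testis library, which allows up to 6.19 CPM, and Mir99a had 0 reads in 1 caput sperm library with kinase, which allows up to 15.2 CPM.

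In tissue without enzyme, all 6 genes were higher in cauda epididymis than in testis, and the mir-125 genes and Mir99a were higher by more than Mir99b and Mir100. Mir99a had 287, 390.4, 301 and 475 CPM in the 4 epididymis libraries, against 21.1, 26.7, 27 and 31.8 CPM in the 4 testis libraries. Mir125a had 1283, 1121, 961 and 1691 CPM in epididymis and 103, 132, 132 and 165 CPM in testis. Mir100 had 137, 147, 118 and 179 CPM in epididymis and 28.6, 37.1, 34.1 and 47.2 CPM in testis. For each of these genes the lowest epididymis library was above the highest testis library. The log2 fold changes were 3.48 ± 0.22 (SE) for Mir99a, 3.4 ± 0.21 for Mir125b-2, 3.35 ± 0.21 for Mir125b-1, 2.97 ± 0.26 for Mir125a, 2.39 ± 0.26 for Mir99b and 1.70 ± 0.21 for Mir100. The largest adjusted p was 6.48e-07 (Mir100). All 6 members rose, where 45.5% of all rows and 70.9% of microRNA rows rose, and the median microRNA row had a log2 fold change of 2.23 while the median of all rows was -0.62.

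Relative to other microRNAs the tissue order split within the mir-99/100 family. On microRNA rows alone, where 41% rose, Mir99a was 1.69, Mir125b-2 1.61, Mir125b-1 1.57, Mir125a 1.16 and Mir99b 0.56 (log2) higher in epididymis, with an adjusted p of 0.00587 for Mir99b. Mir100 was at -0.09 with an adjusted p of 0.602. MicroRNAs were 77.9 ± 6.03% of the epididymis libraries and 7.27 ± 0.46% of the testis libraries (SD, n = 4 each). The ratio of Mir99a to Mir100 reads, whose mature forms differ at a single base, was 2.49 ± 0.27 in epididymis and 0.730 ± 0.048 in testis (SD, n = 4 each). The tissues differed in other cell types as well: summed over 6 smooth muscle microRNAs the medians were 253998 CPM in epididymis and 10897 CPM in testis, and their part in the result was not tested. Among the neighbours, Mirlet7c-1 was 4.43, Mirlet7e 3.76 and Mirlet7a-2 2.86 (log2) higher in epididymis tissue.

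Cauda sperm held less of the family than caput sperm, and the chromosome 17 pair accounted for most of the difference. Mir125a had 161, 209.6 and 164 CPM in the 3 cauda sperm libraries without kinase, against 1933, 2475 and 1741 CPM in the 3 caput sperm libraries. Mir99b, its neighbour, had 147, 211 and 147 CPM in cauda sperm and 812, 1119 and 696 CPM in caput sperm. Mir99a had 75.0, 91.3 and 104 CPM in cauda sperm and 124, 89.5 and 132 CPM in caput sperm. The groups were far apart for the chromosome 17 pair and overlapped for Mir99a. By edgeR's test 5 genes fell in cauda sperm, with log2 changes of -2.74 ± 0.38 for Mir125a (SE, adjusted p = 2.71e-06), -1.77 ± 0.32 for Mir100 (6.74e-05), -1.57 ± 0.35 for Mir99b (0.000578), -1.37 ± 0.35 for Mir125b-1 (0.00223) and -0.95 ± 0.30 for Mir125b-2 (0.0115). Mir99a had a log2 fold change of 0.26 ± 0.43 with an adjusted p of 0.662. The share of rows that fell was 33.6% of all rows and 35.3% of microRNA rows, and on microRNA rows alone, where 32.3% fell, the same 5 members fell, with changes between -2.46 for Mir125a and -0.64 for Mir125b-2.

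The make-up of the family differed with region. Mir99b and Mir125a together were 58.3 ± 4.18% of the reads of the 6 genes in cauda sperm and 79.9 ± 3.33% in caput sperm (SD, n = 3 each). Reads of the mir-125 genes were 1.16 ± 0.004 times those of the mir-99/100 genes in cauda sperm and 2.36 ± 0.096 times in caput sperm. The ratio of Mir99a to Mir100 was 5.38 ± 0.95 in cauda sperm and 1.23 ± 0.39 in caput sperm. All 6 genes together were 0.415 ± 0.038% of microRNA reads in cauda sperm and 1.04 ± 0.21% in caput sperm. The let-7 genes of the same loci fell too, with log2 changes of -3.79 for Mirlet7e, -2.60 for Mirlet7c-1 and -1.52 for Mirlet7a-2, and 9 of 12 let-7 genes were called lower. Blood microRNAs moved the other way, at 1625 to 2209.6 CPM summed over 5 genes in cauda sperm and 340.4 to 646 CPM in caput sperm, and their part was not tested. The call for Mir125b-2 was lost with DESeq2 (adjusted p = 0.0812) and without cauda library 3 or any of the 3 caput libraries. With no filter on low rows Mir125a alone was called, at -1.79 (adjusted p = 0.0144), and Mir100 was at -0.84, Mir99b at -0.61, Mir125b-1 at -0.48 and Mir125b-2 at -0.03.

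Through the maturation series the family was a small part of germ cell microRNAs and a larger part in epididymal sperm. Its share of microRNA reads was 0.151% in spermatocytes, 0.309% in early and 0.383% in late round spermatids, 0.163 ± 0.043% in testicular sperm (SD, n = 4), 1.18% in the caput sperm library and 0.793 ± 0.251% in cauda sperm (n = 7). In epididymosomes it was 0.678 ± 0.036% (n = 3). Mir125a had 279 microRNA CPM in spermatocytes (exact 95% interval 245 to 316, which covers counting error only), 766 in early and 841 in late spermatids. It had 621, 699, 424 and 402 in the 4 testicular sperm libraries, 4849 in caput sperm (interval 4750 to 4949), and between 1443 and 4857 with a median of 2039 in cauda sperm. Mir99a had 103 microRNA CPM in spermatocytes, 264 and 273 in early and late spermatids, 91.6, 110.5, 107 and 97.6 in testicular sperm, 459 in caput sperm, and between 425 and 1066 with a median of 609 in cauda sperm. For both genes every cauda sperm library was above every testicular sperm library on this scale. The stages with 1 library have no replicate check.

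**Figure D1:**
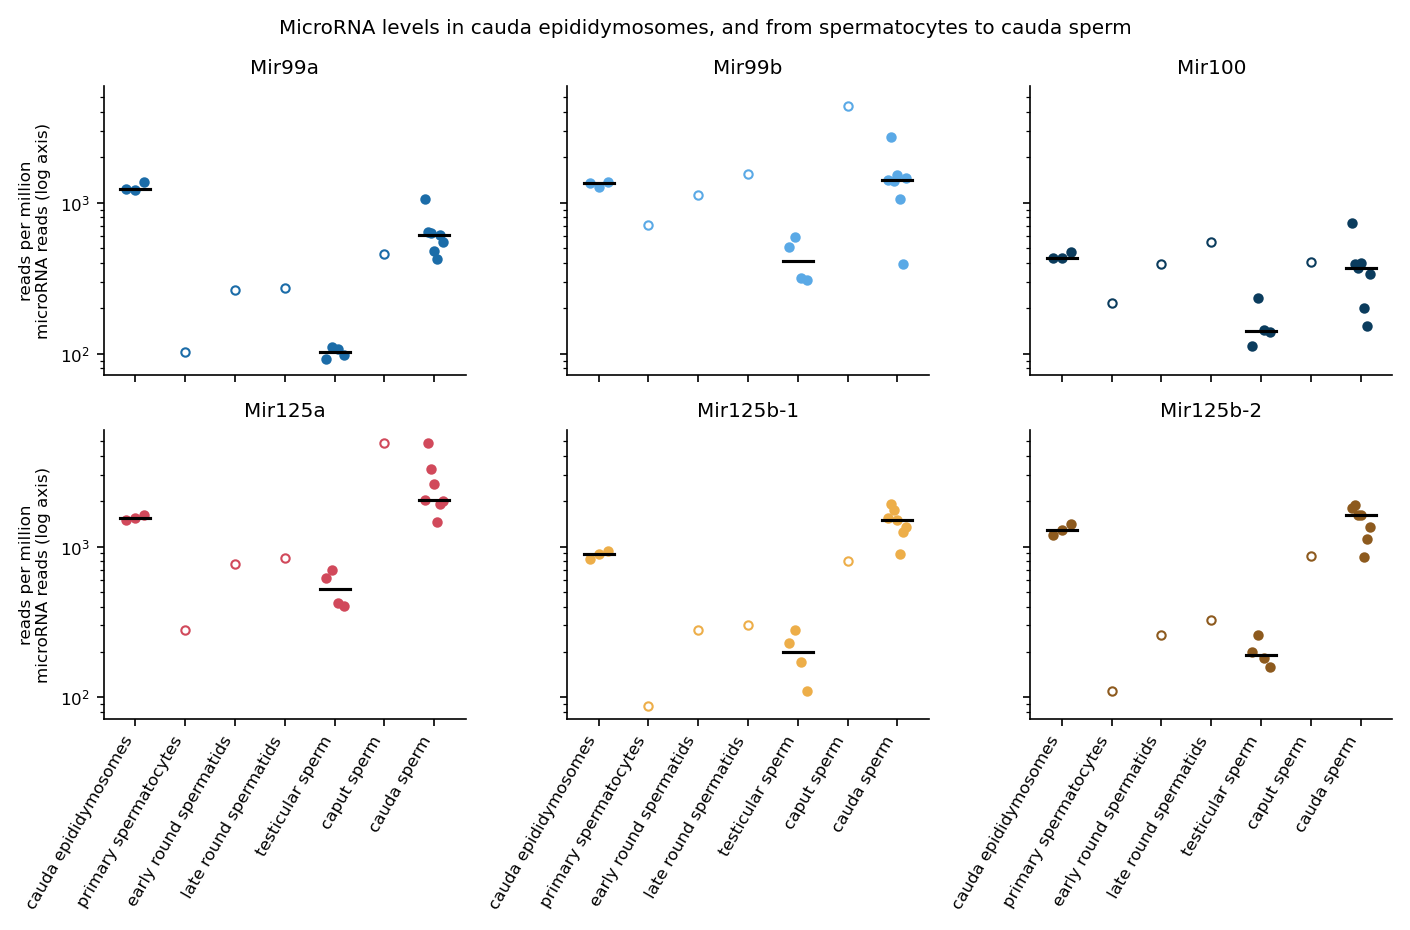
Levels of the 6 genes in cauda epididymosomes and along the maturation series, in microRNA CPM on a log axis; open circles are stages with a single library and black bars are medians. Cauda sperm lie above testicular sperm for Mir99a and Mir125a, and Mir99b and Mir125a are high in the single caput sperm library, at 4381 and 4849.

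The direction between cauda and testicular sperm depended on the scale and on the set of libraries. On the TMM scale the median member was at -0.62 in this series, with members between -1.57 and -0.20. In the whole sperm libraries described below it was at 1.86, with members between 0.80 and 2.78. The reason for this difference was not tested. Mir99b had between 3.44 and 69.6 CPM with a median of 13.6 CPM in the 7 cauda sperm libraries, against 155, 38.5, 47.5 and 12.5 CPM in the 4 testicular ones. Mir100 had between 1.34 and 10.1 CPM with a median of 2.70 CPM in cauda sperm, against 34.5, 15.1, 21.2 and 5.63 CPM in testicular sperm. The groups overlapped in both genes. Both fell, with log2 changes of -1.57 ± 0.45 for Mir100 (SE, adjusted p = 0.00334) and -1.41 ± 0.47 for Mir99b (0.0105), where 32.3% of all rows and 67.8% of microRNA rows fell, but on microRNA rows alone these genes stood at 0.30 and 0.62. There 25% of microRNA rows rose, and among them Mir125b-2 rose by 1.79 ± 0.39 (adjusted p = 0.00132), Mir125b-1 by 1.75, Mir99a by 1.57 and Mir125a by 1.18 (0.046). Without testicular library 1 or library 3 the call for Mir99b was lost, at -0.57 (adjusted p = 0.218) and -1.0 (0.0511), and 3 members were called without testicular library 4 or the cauda library at 69.6 CPM of Mir99b. MicroRNAs were 1.26 ± 0.68% of cauda sperm libraries and 14 ± 12% of testicular sperm libraries. Blood microRNAs summed to 24.2 to 78.7 CPM in cauda sperm and to 5137 to 102899 CPM in testicular sperm, and their part in these values was not tested. Between 3 cauda sperm libraries at 12 weeks and 3 at 9 weeks none of the 6 genes was called, as were none of the 3744 rows by edgeR, and at an unadjusted p under 0.05 there were 14 higher and 18 lower rows.

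In CPM, cauda epididymosomes carried more of every member than testicular or cauda sperm of the series. As a share of microRNA reads, given above, the 6 genes together averaged less in epididymosomes than in cauda sperm. Mir99a had 325, 256 and 298 CPM in epididymosomes, against 28.1, 7.12, 16 and 3.95 CPM in testicular sperm and 2.40 to 16.4 CPM in cauda sperm. Mir125b-2 had 314, 271 and 306 CPM in epididymosomes, against 61.5, 16.7, 27.1 and 6.47 CPM in testicular sperm and 8.14 to 48.3 CPM in cauda sperm. Mir100 had 114, 91.3 and 102 CPM in epididymosomes, against 34.5, 15.1, 21.2 and 5.63 CPM in testicular sperm and 1.34 to 10.1 CPM in cauda sperm. No epididymosome library overlapped with a sperm library in these genes. Against testicular sperm all 6 rose, Mir99a by 4.66 ± 0.58 (log2, adjusted p = 1.2e-07) and Mir125a least, by 2.45 ± 0.54, where 40.5% of all rows and 46.4% of microRNA rows rose and the median microRNA row was 0.87. Against cauda sperm all 6 rose as well, Mir99a by 5.01 ± 0.47 (adjusted p = 4.28e-09) and Mir125b-1 least, by 3.33, where 28.4% of all rows and 76.8% of microRNA rows rose. The median microRNA row was 3.01 in that comparison. On microRNA rows alone all 6 rose against testicular sperm, where 33.2% rose, but against cauda sperm, where 34.1% rose, Mir99a (2.53), Mir100 (1.77), Mir99b (1.38) and Mir125b-2 (1.34) rose while Mir125a and Mir125b-1 did not pass, with adjusted p = 0.182 and 0.112. Mir99b and Mir125a made up 42.5 ± 1.11% of the family's reads in epididymosomes, against 78.4% in the caput sperm library. That library had 617 CPM of Mir99b and 683 CPM of Mir125a, above the epididymosomes, which had 269 to 356 CPM of Mir99b and 324 to 399 CPM of Mir125a. The epididymosome libraries also held 43699.8 to 48118 CPM of smooth muscle microRNAs, against 98.6 to 743 CPM in cauda sperm, and their part was not tested.

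After fusion of testicular sperm with caput epididymosomes, Mir125a was higher than after mock fusion. It had 240.2 and 425 CPM in the fused sperm and 84.6 and 105 CPM in the mock-fused sperm. Mir99b had 264 and 339 CPM after fusion and 71.0 and 112 CPM after mock fusion, and Mir99a 98.4 and 71.4 CPM after fusion and 33.9 and 22.9 CPM after mock fusion. In each of the 6 genes both fused libraries were above both mock libraries. Only Mir125a was called, with a rise of 1.69 ± 0.46 (SE, log2, adjusted p = 0.0446), while Mir99b had an adjusted p of 0.0558 and Mir99a of 0.0779, where 6.86% of all rows and 10.6% of microRNA rows rose. The libraries carry dates that pair a fused with a mock sample, and with the date as a replicate block 4 members rose: Mir125a by 1.67 ± 0.32 (6.06e-06), Mir99b by 1.65 ± 0.32 (1.12e-05), Mir99a by 1.49 ± 0.41 (0.00356) and Mir125b-2 by 1.09 ± 0.38 (0.0319), where 12% of rows rose. Of 331 microRNA rows, 57 rose in that fit. With only 2 pairs, its p-values rest largely on spread estimated across rows and little on spread between the pairs. The call for Mir125a was lost without mock library 1, mock library 2 or fusion library 2, no member was called without either mock library, and 2 were called without fusion library 1. The related mir-10 genes rose by more, Mir10a by 4.36 ± 0.48 (adjusted p = 0.000933) and Mir10b by 4.19 ± 0.53 (0.000987), and Mirlet7e rose by 2.14 (0.011). With the date as a block the call for Mir10b was lost, at 4.33 ± 0.72 (adjusted p = 0.0886), and that for Mir10a held (6.32e-52). Epithelial markers differed in the same libraries, with 3909 and 3950.1 CPM of epithelial microRNAs after fusion and 136 and 370.3 CPM after mock fusion, and their part was not tested.

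Cauda sperm washed with detergent held less of the family than unwashed sperm. Mir99b had 113, 354, 284, 163 and 204 CPM in sets 1 to 5 of unwashed sperm, 26.2, 139, 40.7, 61.6 and 55.1 CPM after the low wash, 32.6, 52.9, 22.2, 41.7 and 44.3 CPM after the mid wash and 18.9, 51.1, 23.5, 48.3 and 64.6 CPM after the high wash. Mir99a had 101, 118, 113, 88.5 and 140.4 CPM unwashed, 25.6, 44.1, 19.9, 32.1 and 40.9 CPM after the low wash, 28.7, 25.5, 11, 28.7 and 24 CPM after the mid wash and 25.1, 19.4, 12.3, 23.8 and 46.6 CPM after the high wash. Every washed library was below every unwashed one for Mir99a, and for Mir99b the low-washed set 2, at 139 CPM, was above the unwashed set 1. Mir125a had 38.2, 90.1, 50.2, 105 and 144 CPM after the mid wash and 136, 394, 430.0, 334 and 515 CPM unwashed, and these groups overlapped only through the unwashed set 1. That set is the only one titled FVBTA. Mir99a averaged 112 ± 19.5 CPM unwashed, 32.5 ± 10.1 CPM after the low wash, 23.6 ± 7.32 CPM after the mid wash and 25.5 ± 12.9 CPM after the high wash (SD, n = 5 each), and the 3 washes overlapped one another in all 6 genes.

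After the mid wash 5 members fell, where 2.08% of all rows and 37.3% of microRNA rows fell. The log2 changes were -2.87 ± 0.45 for Mir99b (SE, adjusted p = 0.000407), -2.60 ± 0.46 for Mir99a (0.00198), -2.47 ± 0.58 for Mir125a (0.0188), -2.23 ± 0.49 for Mir125b-2 (0.0129) and -1.81 ± 0.42 for Mir100 (0.0222), and Mir125b-1 had an adjusted p of 0.0531. After the high wash 4 fell, where 1.45% of all rows and 26.4% of microRNA rows fell. Their log2 changes were -2.69 ± 0.45 for Mir99b (adjusted p = 0.000924), -2.37 ± 0.45 for Mir99a (0.00633), -1.98 ± 0.49 for Mir125b-2 (0.0409) and -1.81 ± 0.41 for Mir100 (0.0302). After the low wash none was called, where 0.0713% of all rows and 2.17% of microRNA rows fell, and at an unadjusted p under 0.05 edgeR had 397 higher and 539 lower rows. The 4 libraries of a set deviate together, and with the set as a replicate block 5 members fell after the low wash, where 1.59% of rows fell, among them Mir125a (-1.94 ± 0.19, adjusted p = 8.24e-08) and Mir99a (-1.81 ± 0.29, 0.00368), while Mir100 had an adjusted p of 0.0851. All 6 fell after the mid wash and after the high wash in that fit, where 6.26% and 4.6% of rows fell. Of 346 microRNA rows in that fit, 138 fell after the low wash, 241 after the mid wash and 237 after the high wash. All 12 let-7 genes fell after each wash there.

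Without the block the counts rested on single libraries. For the mid wash, 3 members were called without unwashed library 4, unwashed library 5 or mid-washed library 3, and for the high wash 2 were called without any 1 of unwashed libraries 2 to 5 or high-washed libraries 1 to 4, and 6 without high-washed library 5. With no filter on low rows the high-wash calls for Mir125b-2 and Mir100 were lost. The median change of microRNA rows was -1.54 after the mid wash, and microRNAs as a whole were 4.57 ± 1.53% of mid-washed and 15.1 ± 2.83% of unwashed libraries (SD, n = 5 each). Members also fell relative to other microRNAs: on microRNA rows alone, where 28.2% fell after the mid wash, 5 members fell, with log2 changes between -1.46 for Mir99b and -0.68 for Mir125b-1, while Mir100 had an adjusted p of 0.405. After the high wash 4 fell on that scale, where 21.9% of microRNA rows fell, with changes between -1.56 for Mir99b and -0.84 for Mir125b-2. The fall was shared with related rows. After the mid wash the median let-7 gene was at -2.35 on the TMM scale and -0.94 on microRNA rows alone, and the median member at -2.35 and -0.89. On both scales 9 of 12 let-7 genes were called lower. With the set as a block Mir10a and Mir10b were at -3.22 and -3.24 after the mid wash. The family's share of microRNA reads, taken without regard to the sets, was 0.541 ± 0.154% after the mid wash and 0.699 ± 0.258% unwashed (SD, n = 5 each). Fragments of the host genes did not move with their microRNAs: Mir99ahg and Spaca6, at no more than 4.8 and 3.7 CPM, had mid-wash changes of -0.17 and -0.01 with adjusted p = 0.832 and 0.996. Blood microRNAs summed to a median of 193 CPM after the mid wash and 1953 CPM in unwashed sperm, and epithelial microRNAs to 735 CPM after the mid wash and 6922 CPM in unwashed sperm, and their part was not tested.

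**Figure D2:**
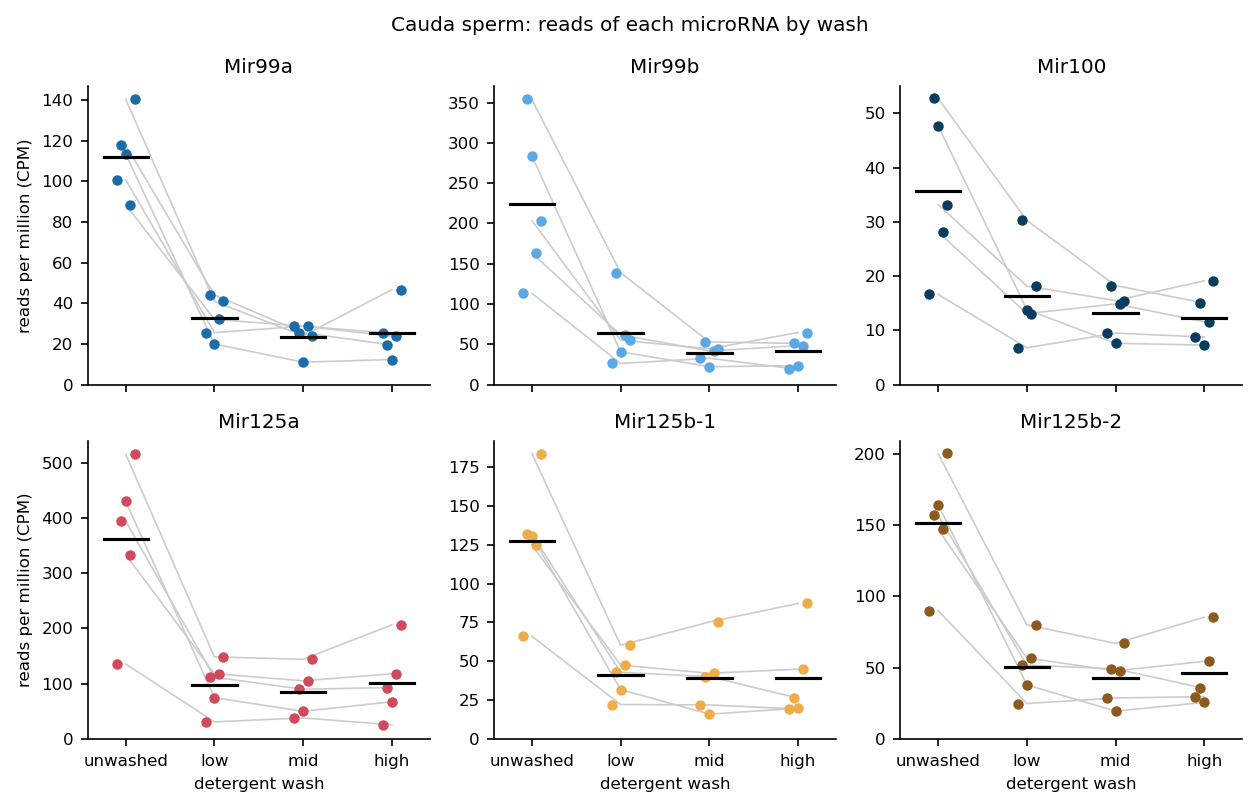
CPM of the 6 genes in cauda sperm that were unwashed or washed with low, mid or high detergent; each point is a library, grey lines join the 4 libraries of a set and black bars are means. In Mir99a all 15 washed libraries, at 11 to 46.6 CPM, lie below the 5 unwashed ones, at 88.5 to 140.4 CPM.

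Heads and tails of sperm held little of the family. In cauda sperm Mir125a had 18.2, 6.46 and 17.1 CPM in the 3 head libraries and 76.8, 82.6, 39.6 and 67.8 CPM in the 4 tail libraries. Mir125b-1 had 8.77, 5.07 and 9.60 CPM in heads and 32.4, 29.7, 29.5 and 30.0 CPM in tails. No head library reached a tail library in either gene. Both fell in heads, with log2 changes of -1.53 ± 0.52 for Mir125a (SE, adjusted p = 0.0275) and -1.22 ± 0.46 for Mir125b-1 (0.0466), where 11.5% of all rows and 18.7% of microRNA rows fell, and the other 4 had adjusted p between 0.0705 and 0.465. No member was called without hypotonic head library 1 or 2 or hypotonic tail library 2, and none on microRNA rows alone, while 1 was called without hypotonic tail library 3 and 4 without hypotonic tail library 1. Of 12 let-7 genes, 11 fell. Epithelial microRNAs were 111 to 251 CPM in heads and 353 to 1748 CPM in tails, and their part was not tested.

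In testicular sperm Mir125a had 19.4, 32.3 and 19.2 CPM in heads and 63.3 and 61.6 CPM in tails, and Mir99b had 8.77, 15.6 and 6.74 CPM in heads and 33.6 and 24.4 CPM in tails. The groups did not overlap, but none of the 6 genes was called by edgeR, with adjusted p between 0.0574 and 0.264, where 0.997% of all rows and 19.2% of microRNA rows fell. DESeq2 called 3 of the 6, and at an unadjusted p under 0.05 edgeR had 176 higher and 283 lower rows of all kinds. Without head library 2, at 32.3 CPM of Mir125a, there were 4 called. With the title letters as a replicate block all 6 fell, where 214 of 6320 rows and 173 of 289 microRNA rows fell. The 2 pairs of like letter are too few to tell whether the letters pair samples. None of the 6 genes was called for a head-to-tail difference that itself differed between cauda and testicular sperm, where 13.5% and 3.84% of rows were called higher and lower. Between whole cauda and whole testicular sperm Mir99a was the only member called: it had 20.7 to 104 CPM with a median of 40.6 CPM in 6 cauda libraries and 5.20 and 13.3 CPM in 2 testicular libraries, and rose by 2.78 ± 0.93 (adjusted p = 0.019), where 21.8% of all rows and 39.6% of microRNA rows rose. The other 5 had adjusted p between 0.0538 and 0.299. Wash was not a term in this fit, and hypotonic libraries were present among the cauda sperm only, so wash is mixed with location. With detergent-treated cauda sperm alone 4 members were called, and the share of rows called in that fit is not given. Without the testicular library at 5.20 CPM the value for Mir99a was 2.00 with an adjusted p of 0.187, while 4 members were called without hypotonic cauda library 1 or 2 or detergent cauda library 2, and 3 without hypotonic cauda library 3. Epithelial microRNAs were 351 to 2964 CPM in whole cauda sperm and 26.7 to 32.4 CPM in whole testicular sperm, and their part was not tested.

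The labels name an enzyme as the treatment of a library. Polynucleotide kinase adds a phosphate to the 5′ end of RNA and, in its full form, also removes phosphates from the 3′ end. The form labelled "PNK 3 minus" is known to lack the phosphatase activity and is called phosphatase-dead here. AlkB removes methyl groups from bases, and RppH removes pyrophosphate and caps from the 5′ end. In sperm the full kinase lowered the share of all 6 genes. In cauda sperm Mir99b had 10.3, 21.1 and 4.43 CPM with kinase and 147, 211 and 147 CPM without, and Mir125a had 29.4, 42.3 and 11.1 CPM with kinase and 161, 209.6 and 164 CPM without. In caput sperm Mir100 had 8.32, 5.08 and 9.61 CPM with kinase and 99.5, 109 and 82.5 CPM without. No kinase library overlapped with an untreated one in these comparisons. The log2 changes ran between -3.39 ± 0.40 (Mir99b, adjusted p = 2.13e-07) and -2.26 ± 0.39 (Mir125a, 3.6e-05) in cauda sperm and between -3.60 ± 0.48 (Mir100, 2.47e-06) and -2.75 ± 0.58 (Mir99a, 0.000581) in caput sperm. All 6 members fell in both, where 28.8% of all rows and 87.4% of microRNA rows fell in cauda sperm and 27.1% and 79.2% in caput sperm. The median microRNA rows were at -2.57 and -2.68, close to the members, and all 12 let-7 genes fell in both.

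In epididymis tissue the full kinase gave a like result, and in testis tissue it did not. All 6 members fell in epididymis tissue, where 35.2% of all rows and 83.2% of microRNA rows fell, with log2 changes between -3.14 (Mir100, adjusted p = 4.55e-07) and -2.07 (Mir125a, 0.00156). In testis tissue none was called, with adjusted p between 0.312 and 0.999, where 0.273% of all rows and 1.04% of microRNA rows fell, DESeq2 called 1 of the 6, and the difference between the tissues was not tested. Mir125a had 574, 414, 325 and 617 CPM with the full kinase and 1283, 1121, 961 and 1691 CPM untreated in epididymis tissue, and 114, 141, 106 and 179.8 CPM with the full kinase and 103, 132, 132 and 165 CPM untreated in testis tissue. The groups were apart in epididymis tissue and overlapped in testis tissue. The epididymis call for Mir125a was lost without any 1 of 7 of the 8 libraries (all but acid untreated library 1), and that for Mir99a without base untreated library 2. MicroRNAs were 28.8 ± 11% of kinase-treated and 77.9 ± 6.03% of untreated epididymis libraries.

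With phosphatase-dead kinase the families separated. In epididymis tissue Mir125b-1 had 35.8, 39.1, 9.91 and 31.7 CPM with this enzyme and 465.6, 571, 462 and 529 CPM untreated, whereas Mir99b had 1291, 1968, 347 and 1155 CPM with it and 571, 465.8, 376 and 771 CPM untreated. In testis tissue Mir125b-1 had 3.65, 3.4, 1.18 and 7.63 CPM with the enzyme and 34.3, 43.9, 36.0 and 47.8 CPM untreated, and Mir99b had 197, 242, 123 and 309 CPM with it and 66.1, 90.8, 83.5 and 106 CPM untreated. The mir-125 libraries were apart in both tissues, and Mir99b libraries were apart in testis and overlapped in epididymis. In epididymis tissue the log2 changes were -6.08 ± 0.59 for Mir125b-1 (adjusted p = 2.11e-13), -5.94 ± 0.59 for Mir125b-2 and -4.22 ± 0.62 for Mir125a (1.31e-08), against -2.66 ± 0.52 for Mir99a, -2.30 ± 0.48 for Mir100 and -0.94 for Mir99b (0.0843). In that fit 57% of all rows and 94.8% of microRNA rows fell, the median of all rows was -1.97 and that of microRNA rows -6.06, so these values are read relative to one another. In testis tissue, where the median of all rows was -0.01, the mir-125 genes fell, with changes of -2.49 ± 0.46 for Mir125b-1 (0.000171), -2.21 ± 0.42 for Mir125b-2 and -1.5 ± 0.33 for Mir125a (0.000936), while Mir99b rose by 2.25 ± 0.43 (0.000248) and Mir99a by 1.11 ± 0.38 (0.0228). There 18.1% of all rows fell and 23.3% rose, and of microRNA rows 60.4% fell and 12.2% rose.

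Scale changed the direction of some of these values but not the order of the families. On microRNA rows alone in epididymis tissue, where 20.1% rose and 28.1% fell, Mir99b (4.56), Mir100 (3.17), Mir99a (2.88) and Mir125a (1.11) rose with phosphatase-dead kinase and Mir125b-1 fell by 0.63. In testis tissue, where 25.9% rose and 27.1% fell on that scale, Mir99b (3.86), Mir99a (2.70) and Mir100 (2.61) rose and Mir125b-1 fell by 0.90. The ratio of mir-125 to mir-99/100 reads, which no scaling changes, was 0.210 ± 0.058 with the enzyme and 2.38 ± 0.23 untreated in epididymis tissue, and 0.121 ± 0.010 with the enzyme and 1.53 ± 0.036 untreated in testis tissue (SD, n = 4 each). The ranges were 0.165 to 0.291 against 2.07 to 2.62 in epididymis. Mir10a and Mir10b, of the related mir-10 family, were at -2.39 and -1.49 in epididymis tissue on the TMM scale, while Mirlet7a-2, Mirlet7c-1 and Mirlet7e from the same 3 loci were at -6.91, -6.63 and -7.44. The first base of the mature 5p form is U in mir-125 and A or C in mir-99/100. Other microRNA rows were grouped by the first base of their 5p arm, whichever arm gave the reads, and 66 rows had none. The medians in epididymis tissue were -6.42 for U, -6.28 for A, -6.23 for C and -6.37 for G. A part of the first base in the split was not tested. The testis call for Mir99a was lost without acid or base untreated library 1 and without acid or base phosphatase-dead library 2.

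AlkB gave a smaller split in the same order, and so did RppH in epididymis tissue. A single related row, Mir10b, took up much of these epididymis libraries. It had 492232 to 620529 CPM with AlkB and 440016 to 853829 CPM with RppH, against 164329 to 237492 CPM untreated. In testis tissue its medians were 72297 CPM with AlkB, 135385 CPM with RppH and 12100 CPM untreated. Its part in the CPM and microRNA shares of the members was not tested. With AlkB Mir125b-1 had 41.6, 29.8, 39.7 and 36.4 CPM and 465.6, 571, 462 and 529 CPM untreated in epididymis tissue, and 8.27, 8.65, 5.59 and 10.8 CPM with AlkB and 34.3, 43.9, 36.0 and 47.8 CPM untreated in testis tissue. Mir100 had 22.5, 30.9, 27.9 and 32.0 CPM with AlkB and 28.6, 37.1, 34.1 and 47.2 CPM untreated in testis tissue. The libraries of Mir125b-1 were apart in both tissues, and those of Mir100 overlapped in testis tissue. All 3 mir-125 genes fell with AlkB in both tissues and none of the 3 mir-99/100 genes was called. In epididymis tissue the log2 changes were -2.83 ± 0.50 for Mir125b-1 (adjusted p = 7.47e-06), -2.20 ± 0.56 for Mir125a (0.00116) and -1.99 ± 0.49 for Mir125b-2 (0.000691), where 24.4% of all rows and 57.4% of microRNA rows fell, and the mir-99/100 genes had adjusted p between 0.0993 and 0.23. In testis tissue they were -2.13 ± 0.44 for Mir125b-1 (0.00225), -1.77 ± 0.33 for Mir125a (0.00127) and -1.37 ± 0.40 for Mir125b-2 (0.0263), where 7.82% of all rows and 26.4% of microRNA rows fell, with 0.574 to 0.976 for mir-99/100. On microRNA rows alone Mir125b-1 and Mir125a fell in both tissues, Mir99a rose by 0.74 in epididymis tissue (adjusted p = 0.00993) and by 1.02 in testis tissue (0.045), and the call for Mir125b-2 was lost, at -0.50 (0.0612) in epididymis tissue and -0.38 (0.454) in testis tissue. On that scale 27.4% of microRNA rows rose and 27.1% fell in epididymis tissue, and 23.8% rose and 12.1% fell in testis tissue. Without base untreated library 2 Mir125b-1 alone was called in epididymis tissue, without base untreated library 1 or acid untreated library 2 Mir125a was not called, and without base AlkB library 2 there were 5 called. In testis tissue the call for Mir125b-2 was lost without any 1 of acid AlkB library 1, base AlkB libraries 1 and 2, and acid or base untreated library 2.

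With RppH in epididymis tissue all 3 mir-125 genes fell, with log2 changes of -2.30 ± 0.50 for Mir125b-2 (adjusted p = 0.00014), -2.04 ± 0.49 for Mir125b-1 (0.000636) and -1.36 ± 0.56 for Mir125a (0.0469), where 33.7% of all rows and 52.9% of microRNA rows fell, and the mir-99/100 genes had adjusted p between 0.172 and 0.976. Mir125b-2 had 39.9, 273, 52.5 and 74.7 CPM with RppH and 651, 734, 659.6 and 737 CPM untreated, with all 4 RppH libraries below the untreated ones. On microRNA rows alone, where 23.7% rose and 26.4% fell, Mir99a (1.70), Mir100 (1.36) and Mir99b (1.06) rose, Mir125b-2 fell by 0.59, and Mir125b-1 (-0.39) and Mir125a (0.34) did not pass, with adjusted p = 0.197 and 0.29. The call for Mir125a was also lost with DESeq2 and with no filter on low rows. In testis tissue Mir125b-2 (-1.43 ± 0.40, adjusted p = 0.0201) and Mir125a (-0.97 ± 0.33, 0.0424) fell, where 7.64% of all rows and 21.5% of microRNA rows fell. Mir125b-2 had 14.4, 18, 43.3 and 20.5 CPM with RppH and 44.5, 57.0, 53.1 and 61.9 CPM untreated in testis tissue, and the library at 43.3 CPM is the one with epithelial microRNAs. Without it 3 members fell and 1 rose, without untreated library 2 of either label no member was called, and without untreated library 1 of either label, acid RppH library 1 or base RppH library 2 a single member was. In epididymis tissue the same 3 genes fell without acid RppH library 2, the library that stood apart, 4 members fell without acid RppH library 1, and the call for Mir125a was lost without any 1 of the 4 untreated or the 2 base RppH libraries. The ratio of mir-125 to mir-99/100 reads was 0.962 ± 0.067 with AlkB and 0.948 ± 0.210 with RppH in epididymis tissue, and 0.580 ± 0.107 with AlkB in testis tissue, against the untreated ratios above. With RppH in testis tissue it was 0.460, 0.388 and 0.580 in 3 libraries and 2.22 in base RppH library 1, the one with epithelial microRNAs, which was above the untreated libraries. With the full kinase it was 2.95 ± 0.49 in epididymis tissue and 2.07 ± 0.05 in testis tissue.

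**Figure D3:**
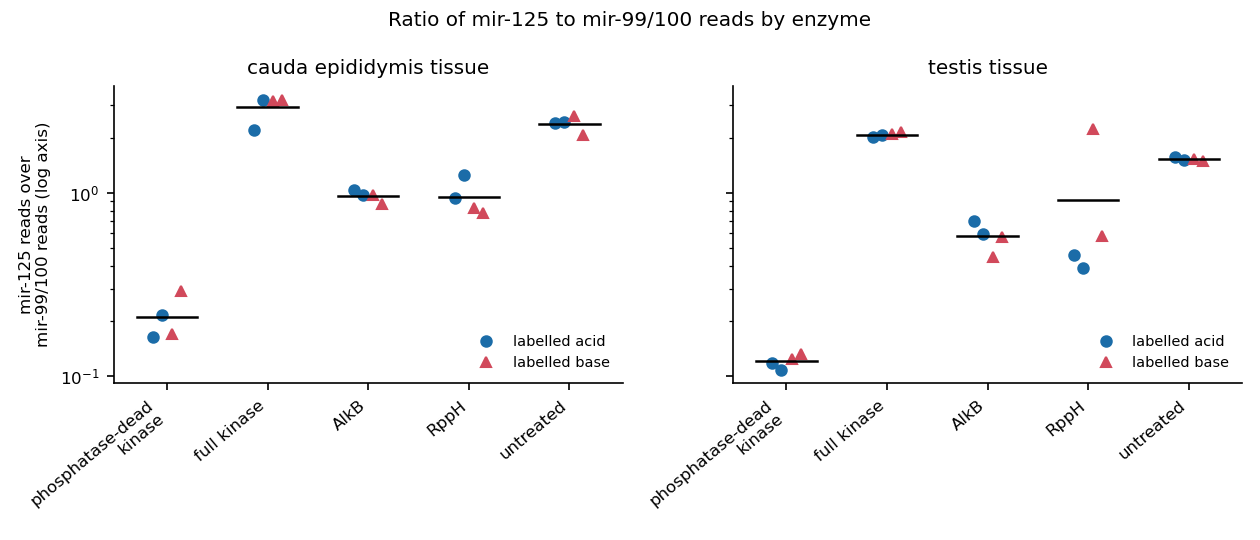
Ratio of mir-125 to mir-99/100 reads in each tissue library on a log axis, by enzyme; circles are libraries labelled acid, triangles base, and bars are means. The phosphatase-dead libraries lie lowest in both tissues, with a mean of 0.210 against 2.38 untreated in epididymis and 0.121 against 1.53 in testis.

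**Figure D4:**
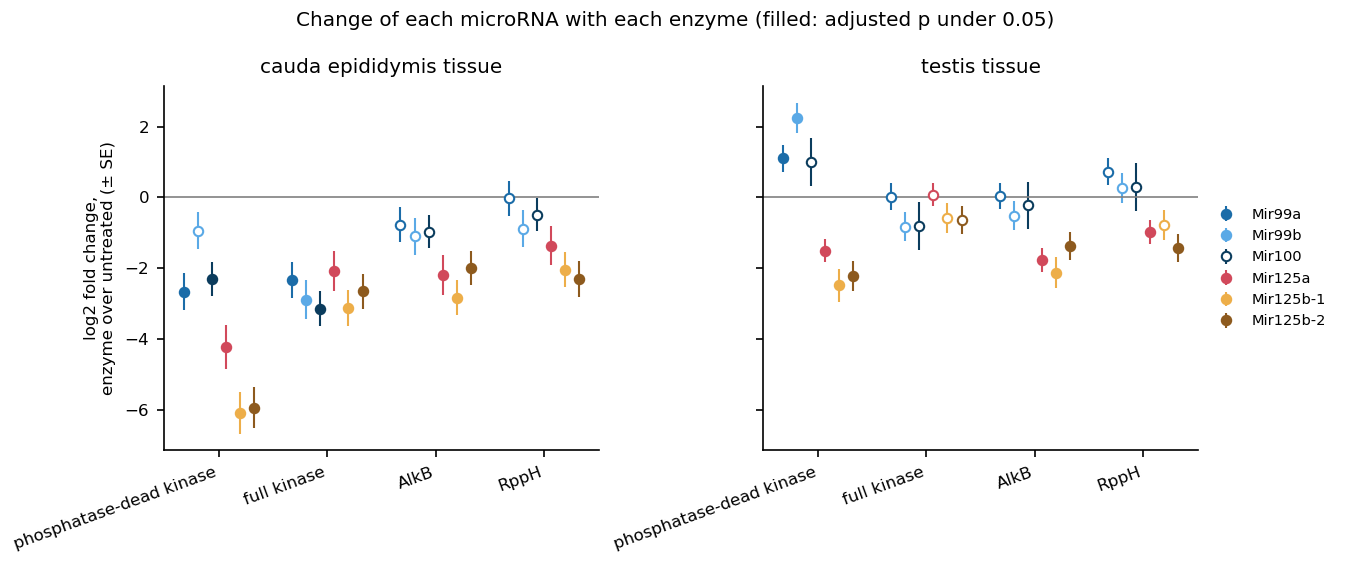
Log2 fold change with its standard error for each of the 6 genes with each enzyme over no enzyme on the TMM scale, in both tissues; filled points passed an adjusted p of 0.05. With phosphatase-dead kinase the mir-125 genes lie lowest, down to -6.08 in epididymis, and Mir99b is highest, at 2.25 in testis.

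T-to-C changes are read as the mark of RNA that took up the base analogue, and in caput epididymis tissue they were more frequent in the 4-TU library than in its control for all 6 arms. The same held for 263 of all 299 arms there (88.0%), so the 6 arms were close to the general share. The percent of reads with a T-to-C change, averaged over the uridines among positions 1 to 18, was 0.0869% for miR-99a-5p in the caput 4-TU library (479 changes in 137854 reads) and 0.0242% in its control (138 changes in 142677 reads). For miR-99b-5p it was 0.0635% with 4-TU and 0.0164% in the control, and for miR-100-5p 0.0764% and 0.0241%. For miR-125a-5p it was 0.158% with 4-TU (1186 changes in 150321 reads) and 0.0873% in the control (777 changes in 178042 reads). The arms of Mir125b-1 and Mir125b-2 were at 0.120% with 4-TU and at 0.0760% and 0.0764% in the control, with near-equal reads, 698571 and 687821, so these arms share reads. The exact 95% intervals of 4-TU and control did not overlap for any of the 6 arms in caput. T-to-C was not the most frequent change in any arm of the caput 4-TU library. The highest of the 11 other kinds was at 0.0873% for miR-99a-5p, 0.0947% for miR-99b-5p and 0.100% for miR-100-5p. It was at 0.196% for miR-125a-5p and 0.199% for both miR-125b-5p arms. The median of the other kinds was above T-to-C for miR-100-5p, at 0.0779%, and below it for the other arms.

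The ratio of 4-TU to control was 3.88 for miR-99b-5p, 3.59 for miR-99a-5p and 3.17 for miR-100-5p, against 1.81 for miR-125a-5p and 1.57 and 1.56 for the miR-125b-5p arms. The difference in percentage points was alike across the families, between 0.0431 and 0.0705, and the control level was higher in mir-125. With 1 library a group there is no test, and 3 of 6 arms were past 2-fold where 51.5% of all 299 arms were. In testis 0 of 6 arms were past 2-fold, where 12.2% of arms were, and miR-125b-5p of Mir125b-2 had 0.0720% with 4-TU and 0.0909% in the control. In cauda sperm 1 arm was past 2-fold, where 21.5% were: miR-100-5p had 1 change in 601 reads with 4-TU and 0 in 431 reads in the control. There miR-125a-5p had 0.125% with 4-TU (interval 0.0790 to 0.187) and 0.155% in the control (0.101 to 0.226), which overlap. The labels used here do not say which cells could convert the analogue.

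**Figure D5:**
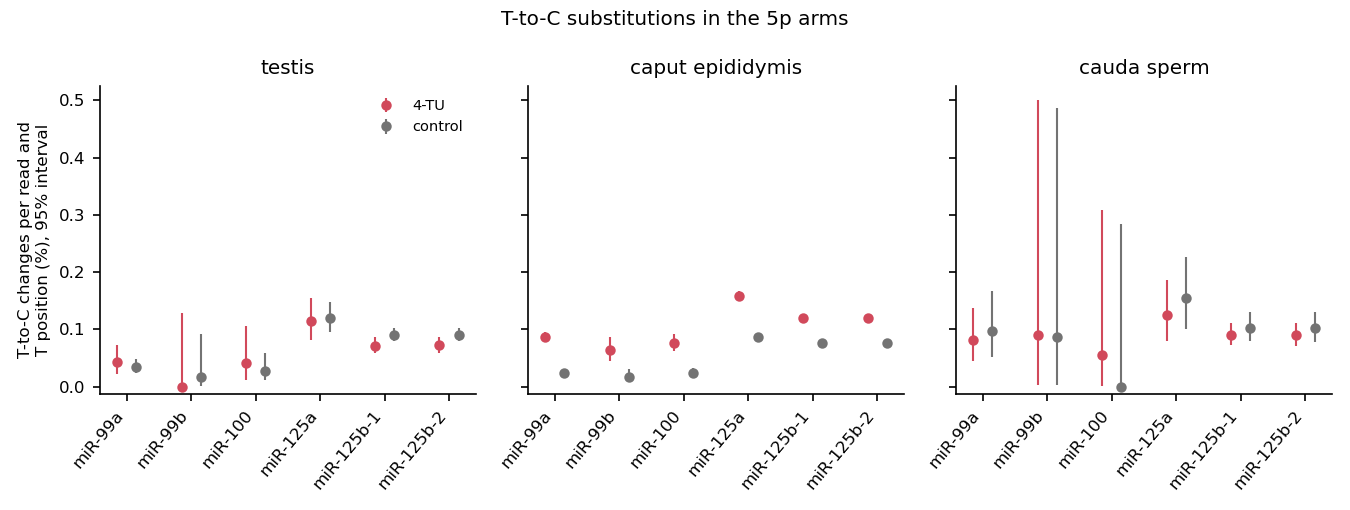
Percent of reads with a T-to-C change per uridine for each arm in the 4-TU and control library of testis, caput and cauda sperm, with exact 95% intervals for counting error. In caput the 4-TU points lie above the control in all 6 arms, by 0.0431 to 0.0705 percentage points, where 88.0% of all 299 arms were higher with 4-TU. In testis and cauda sperm the intervals overlap in all 6 arms.

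Across 48 group means the members tracked different microRNAs. Pearson correlations of log2(CPM + 1) are given as a description, over groups that share tables and library depth. Mir125b-1 and Mir125b-2, which share a mature sequence, had r = 0.966, Mir125a and Mir125b-1 0.927, Mir99b and Mir100 0.920 and Mir99a and Mir99b 0.849. With the members themselves left out, of the 118 microRNA rows averaging at least 50 CPM, Mir125a was most like Mirlet7b (0.920), Mir125b-1 most like Mir26a-1 (0.925), Mir125b-2 most like Mir411 (0.922), Mir99a most like Mir10b (0.850), Mir100 most like Mir30a (0.728) and Mir99b most like Mir30d (0.708).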

How the data were processed

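Small RNA libraries of mouse tissue, sperm and vesicles were compared in 7 tables. Per the labels' protocols RNA under 40 nt was cloned, and the build, per the submitters' processing notes, was mm10. An aligner or counter is not given in the sources used here. The deposited values, per the file headers, are read counts for each microRNA, tRNA, rRNA, piRNA and repeat row, with no scaling. The deposited gene rows of 5 tables hold expected counts, which were rounded. The tissue tables have no gene rows, so levels set across tables are given as reads per 1000000 microRNA reads and tests were run within a table. The substitution tables deposited by the authors hold read counts and, for each kind of change, the percent of reads that carry it. The percents, turned back into reads, were whole within 0.02 for all but 1 of 36 values.

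The 28S, 18S and 5.8S rows, whose reads the 45S row also holds, were left out, as were 27 rows with date names, at most 0.0282% of a library. In those for substitutions, columns of 4 libraries that the labels do not list were not used. The fusion and the maturation tables were scaled separately. One sperm library is titled as mid wash but labelled as high wash, and was used as high wash library 4.

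The counts were fitted with edgeR 4.0.16 (filterByExpr, TMM, robust quasi-likelihood test) in R 4.3.3 with limma 3.58.1 on the whole table. P-values were adjusted by the method of Benjamini and Hochberg across every row in the fit, and the threshold was 0.05. Tissue fits had the acid or base label as a term. Alternatives were DESeq2 1.42.0, other scalings, no filter, microRNA rows alone, Mir125b rows summed, replicate blocks, and each library left out. The fits were tested on simulated data. Tables and figures were made with Python 3.11.15, numpy 2.4.6, pandas 2.3.3, scipy 1.17.1 and matplotlib 3.10.9. Exact binomial intervals and limits from a count of 0 (3 counts) cover counting error only, as the reads carry no molecular identifiers. No pair of replicates agreed within sampling noise.

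The numbers pair samples in the wash sets, where correlations of deviations from the group means were 0.206 to 0.891 between libraries of a set. Sperm libraries with and without kinase also share numbers in their titles. Their correlations, from 3 pairs each, were 0.0806 to 0.554 in cauda and 0.126 to 0.25 in caput sperm. These values do not settle whether the numbers pair samples. In the fusion dates in the labels pair the libraries. For testicular heads and tails the 2 pairs of like letter are too few to decide. Named genes were all 6 members, the let-7 genes of their loci, Mir10a, Mir10b, the host genes, and for each member the microRNA rows of at least 50 mean CPM most like it over group means of log2(CPM + 1). The rule for the members used names and no measured value, but the members and lists were chosen with earlier results of these data known.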

Additional observations from a re-analysis of the deposited data

Results flagged for a closer look

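Of 108 combinations of a group of 4 to 10 libraries and a member, 10 had a highest or lowest library whose gap to the next, as a share of the group's range, was above Dixon's 95% critical value, which chance passes in about 1 in 20. Of these, 4 were acid RppH library 2 of epididymis tissue, at 963 CPM for Mir99a, 1066 CPM for Mir125a, 279.9 CPM for Mir125b-1 and 273 CPM for Mir125b-2, each above its 3 companions. In testis tissue base RppH library 1 stood at 136 CPM for Mir125b-1. In the maturation series 1 cauda sperm library, of 12 weeks, stood at 69.6 CPM for Mir99b and 124.5 CPM for Mir125a, above the other 6 libraries. Mir99a stood low, at 11 CPM, in mid-washed sperm of set 3. Mir100 stood at 39.9 CPM in detergent-treated whole cauda sperm library 1, and Mir125b-1 at 32.4 CPM in hypotonic cauda tail library 1. Among 24 combinations of enzyme and member, 0 had every epididymis library move one way and every testis library the other.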

How the results depend on the processing

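Counts are members called, of 6. Rows called beside them are given for counts that changed on microRNA rows alone or with the replicate block. For the other alternatives they are not given, so there a count alone cannot tell the members from a shift of the whole table. On microRNA rows alone they were 4 after the low wash, 0 in cauda heads and in whole cauda sperm, and 1 and 0 with kinase in cauda and caput sperm. With phosphatase-dead kinase they were 5 (4 of them higher) in epididymis, where all 5 on the TMM scale were lower, and 4 (3 of them higher) in testis. They were 4 (3 of them higher) and 1 with RppH in epididymis and testis, and 1 with the full kinase in testis. In series cauda sperm they were 4, all higher, where the 2 on the TMM scale were lower, and in the fusion 2. Rows called lower on that scale were 48 of 301 after the low wash and 2 of 300 in cauda heads. With kinase they were 28 of 158 in cauda sperm, 10 of 158 in caput sperm and 20 of 340 in testis, and with RppH in testis 69 of 340. Rows called higher were 35 of 384 in whole cauda sperm and 34 of 328 in the fusion. Shares for the other fits on that scale are given with their results. Among members called on the TMM scale, the values that changed sign there were 0.14 for Mir125a with kinase in cauda sperm, -0.092 for Mir100 between tissues, 2.88, 3.17 and 1.11 for Mir99a, Mir100 and Mir125a with phosphatase-dead kinase in epididymis, 0.11 for Mir125a with it in testis, 0.34 for Mir125a with RppH in epididymis, and 0.62 and 0.30 for Mir99b and Mir100 in series cauda sperm. With library totals as the scale the counts were 5 after the low wash, 5 in cauda heads, 1 in testicular heads, 3 in whole cauda sperm, 3, 6 and 5 with phosphatase-dead kinase, AlkB and RppH in epididymis, 1 with RppH in testis, 1 in series cauda sperm and 2 in the fusion. DESeq2 gave 4 after the low wash, 3 in testicular heads, 4 in whole cauda sperm, 1 with the full kinase in testis and 0 in the fusion. With no filter on low rows the counts were 2 after the high wash, 5 in cauda heads, 6 in testicular heads, 2 in whole cauda sperm, 1 between cauda and caput sperm and 0 with RppH in testis. With DESeq2 size factors in edgeR whole cauda sperm had 2, with Mir125b summed cauda heads had 1, with the 28S rows kept testicular heads had 1, and with detergent-treated cauda sperm alone whole cauda sperm had 4. Within acid libraries the counts were 0 and 4 with RppH in epididymis and testis and 1 with the full kinase in testis, and within base libraries they were 0 with AlkB in epididymis and 0 with phosphatase-dead kinase, AlkB and RppH in testis. With the replicate block they were 5 after the low wash, 4 in the fusion and 6 in testicular heads. There the correlations of -0.242 and 0.865, from 2 pairs of like letter, cannot tell whether the letters pair samples. The block changed no call with kinase in cauda or caput sperm. In phosphatase-dead epididymis it gave 6, where 644 of 1150 rows and 284 of 317 microRNA rows fell. Correlations between epididymis libraries of the same number ran from -0.77 to 0.825 and do not settle whether the numbers mark a shared sample. Leaving out each library gave 3 to 6 for the mid wash, 2 to 6 for the high wash, 0 to 4 in cauda heads, testicular heads and whole cauda sperm, 1 to 5 with AlkB in epididymis, 0 to 4 with RppH in testis, 1 to 3 in series cauda sperm and 0 to 2 in the fusion. The causes were not tested. All other alternatives kept the count within 1.5 times, 345 in all. Depth limits Mir100 and Mir99a in the libraries where they had 0 reads. The scaling by TMMwsp, the rows of 28S, 18S and 5.8S and the acid and base fits were chosen after seeing the data.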
